A study of Homo sapiens with 6 samples.

Results

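C12orf75 is a protein-coding gene of chromosome 12 with a small and little characterised product. Among 19775 genes measured in gefitinib-sensitive PC9 cells and in gefitinib-resistant PC9/gef cells, it had the largest rise in the resistant line. It was read from its only probe set, 225105_at, out of 54613 probe sets that are not array controls, and no further probe set names it together with other genes. The gene was selected on its difference between the lines on these same arrays, so that difference and its rank are given as a description, with no test.

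PC9 is a lung adenocarcinoma cell line with an activating EGFR mutation, and gefitinib blocks the kinase of EGFR. PC9/gef was derived from PC9 by continuous culture in rising gefitinib concentrations. Both lines were grown in RPMI-1640 medium with fetal bovine serum and antibiotics. Whether gefitinib was in the medium at harvest, and whether PC9/gef is 1 clone, is not given in the sources used here. RNA of 3 samples per line, labelled biological replicates, was hybridized to Affymetrix U133 Plus 2.0 arrays, 1 array per sample. The labels do not say whether these were separate cultures, so p-values measure the spread between these samples. The comparison asks which genes differ between the resistant line and its parent. Every value below is a log2 value as deposited, already normalized between arrays, or a difference of such values.

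The arrays showed epithelial cells in both lines. All 5 epithelial markers (EPCAM, CDH1, KRT8, KRT18 and KRT19) had means from 11.62 to 15.20. Of the 4 lung lineage markers, SFTPB alone was detected (means of 4.31 in PC9 and 4.33 in PC9/gef), while NKX2-1, NAPSA and SFTPC were at background level in both lines. The 3 measured leukocyte markers and the 3 endothelial markers were also at background level. Of 6 fibroblast markers, COL1A1 was above it (7.94 in PC9 and 8.46 in PC9/gef). Background level was taken as 2.65, below which 95% of 135 olfactory receptor probe sets had their mean. These genes were used since they are not thought to be transcribed in lung cells. The median of the 135 means was 2.25 and the highest was 7.80.

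C12orf75 is also known as OCC-1, for overexpressed in colon carcinoma, and as AGD3, for a transcript that falls during fat cell differentiation. Transcripts of this locus have been described in colorectal cancer cells as an RNA that binds HuR, a protein that stabilises many messenger RNAs, and promotes its breakdown through the ubiquitin ligase subunit beta-TrCP. The alias OCC-1 is shared by 2 genes in the RefSeq table, C12orf75 on chromosome 12 and FSTL1 on chromosome 3, so a probe set is only known to be that of C12orf75 through the gene identifier. FSTL1 encodes follistatin-like 1, a secreted glycoprotein.

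The stretch of DNA in front of the gene is shown because the transcript went from background level to a bright signal. These arrays did not measure the promoter itself. The sequence covers the 250 bases before the annotated start of C12orf75 in RefSeq (GRCh38.p14, chr12:105330441-105330690, plus strand), with matches to the CCAAT box and the GC box in capitals.
C12orf75 promoter: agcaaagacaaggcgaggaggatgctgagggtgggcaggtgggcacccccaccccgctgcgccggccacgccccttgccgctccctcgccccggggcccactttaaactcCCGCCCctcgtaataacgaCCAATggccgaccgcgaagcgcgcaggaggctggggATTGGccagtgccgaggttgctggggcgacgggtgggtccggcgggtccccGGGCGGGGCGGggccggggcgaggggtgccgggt
This window was rich in G and C, at 74.0%, which is higher than in 87.7% of the 35114 promoter windows of the same length. It held 27 CpG dinucleotides against a median of 11 over these windows. The CCAAT box, the letters CCAAT on either strand, matched at 2 places, 121 and 85 bases before the start, the second on the minus strand. A match to CCAAT was found in 32.0% of all windows. The GC box, the letters GGGCGG on either strand, matched at 3 places, beginning 140, 34 and 29 bases before the start, and the last 2 share 1 base. A GC box match was found in 42.6% of all windows. There was no match to AP-1 (TGANTCA, in 6.57% of windows), CRE (TGACGTCA, in 1.65%), the TATA box (TATAAA, in 10.7%) or TEAD (GGAATG, in 11.9%). These matches describe letters in 1 window and are not evidence of a bound factor.

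In PC9, the log2 value of C12orf75 was 2.34 on the array of replicate 1, 2.79 on that of replicate 2 and 2.81 on that of replicate 3. In PC9/gef it was 9.90, 9.93 and 9.99 on the 3 arrays. The groups were far apart, since the lowest PC9/gef array lay 7.09 above the highest PC9 array. In PC9 the gene was at the edge of detection, with 2 arrays just above background level and 1 array below it.

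**Figure D1:**
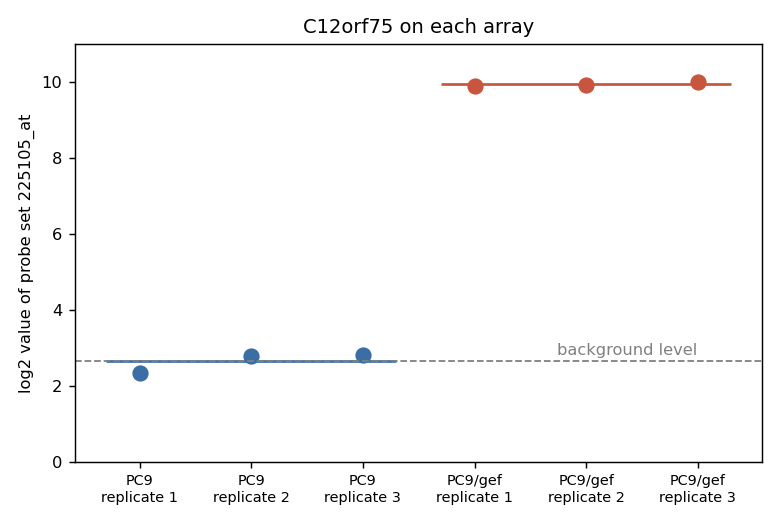
Log2 value of C12orf75 (vertical axis) on each of the 6 arrays (horizontal axis). Points are arrays, solid lines are the line means (2.64 in PC9 and 9.94 in PC9/gef) and the dashed line is the background level of 2.65. The 3 PC9/gef arrays lie between 9.90 and 9.99, and the PC9 arrays lie around the background level.

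The mean of C12orf75 was 2.64 ± 0.27 (SD, n = 3 arrays) in PC9 and 9.94 ± 0.043 (SD, n = 3) in PC9/gef. The difference in log2 value was 7.30, with a standard error of 0.15 from the fit. The PC9 mean of all 3 arrays lay just under the background level, and taken from that level the rise was at least 157-fold. This bound rests on PC9 replicate 1. Without it the PC9 mean was 2.80, above the background level, and the measured rise was 141-fold (difference 7.14). The samples were whole cultures, so more cells with the transcript and more transcript per cell cannot be told apart.

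The spread of C12orf75 over 3 arrays was larger in PC9, where its values lay around the background level. The 3 PC9 arrays covered 0.47 on the log2 scale and the 3 PC9/gef arrays 0.084. Among the 304 other genes over 2-fold higher in PC9/gef, 39 had a larger SD in PC9 than C12orf75, and 240 had a larger SD in PC9/gef. The median SD of those genes, which were not matched to C12orf75 by level, was 0.11 in PC9 and 0.089 in PC9/gef. The array on which C12orf75 was low, PC9 replicate 1, was the lowest of the PC9 arrays in 34.5% of these 304 genes, against 35.2% for replicate 2 and 30.3% for replicate 3. Over the 11954 other genes above background level in a line it was the lowest in 30.0%. Among the 10 largest rises after C12orf75 it was the lowest in 7. These 10 genes were ranked by a difference that a low PC9 array enlarges. The part of this array in the values of the leading genes was not tested.

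C12orf75 was first in rank by the difference PC9/gef minus PC9, both among the 19775 genes and among the 54613 probe sets. In all, 305 genes were over 2-fold higher in PC9/gef, C12orf75 among them (1.54% of the genes). The second gene was IL1A, which encodes the inflammatory cytokine interleukin-1 alpha, at a difference of 6.23, so the gap from C12orf75 to it was 1.06. From IL1A to the third gene, STC2, which encodes the secreted glycoprotein stanniocalcin 2, the gap was 1.78. From the third to the tenth gene the differences fell by 1.42 in all. The first 2 genes thus stood apart from a more closely spaced series. In the other direction, KRT13, a keratin of stratified epithelia, had the largest fall, with a difference of -10.43, which is larger in size than that of C12orf75.

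**Figure D2:**
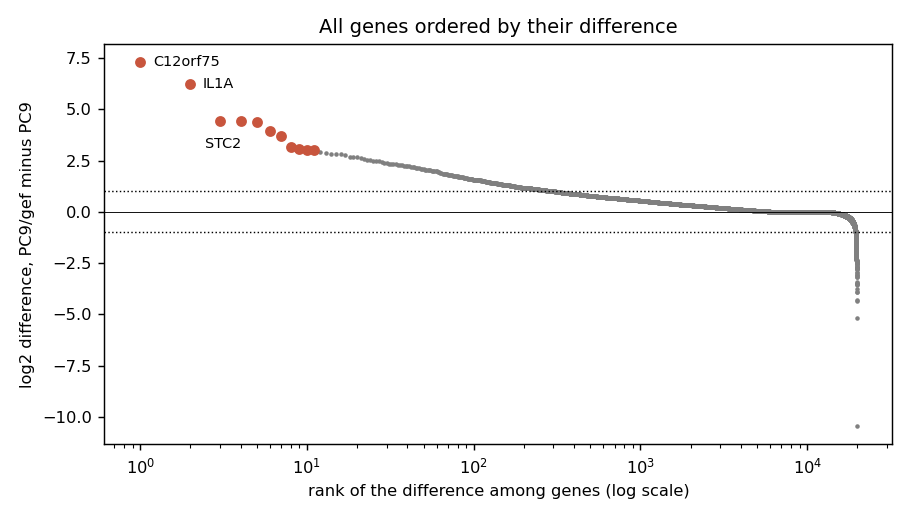
Difference in log2 value, PC9/gef minus PC9 (vertical axis), of all 19775 genes against their rank (horizontal axis, log scale). Each point is a gene, the 11 largest rises are in red and dotted lines mark a 2-fold difference. C12orf75 at 7.30 and IL1A at 6.23 lie above the other genes, and the lowest point, at -10.43, is KRT13.

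The genes whose values were most like those of C12orf75 over the 6 arrays were the next 10 in rank. Likeness was measured by the root mean square difference between the log2 values of 2 genes, each centred on its own mean over the 6 arrays, so that it compares the size of the step and not the level. IL1A was closest, at 0.55. STC2 followed at 1.43, then CTAG2, a cancer-testis antigen, at 1.43 and IL1B, the gene of interleukin-1 beta, at 1.47. CREB5, a transcription factor of the CREB/ATF group, was at 1.67 and ZNF462, a zinc finger protein, at 1.81. ADD2, the membrane skeleton protein beta-adducin, was at 2.07, HLA-DQB1, an HLA class II chain, at 2.12, NCAM1, a neural cell adhesion molecule, at 2.15 and PLAAT1, an enzyme of phospholipid metabolism, at 2.16. The Pearson correlation with C12orf75 over the 6 arrays was from 0.9893 (PLAAT1) to 0.9997 (CTAG2). This correlation is fixed by the step between the lines that these genes share, and the root mean square difference follows the size of that step. The order of likeness therefore repeats the order of rank, and both measures are given as a description.

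The leading genes reached their high values from different starting points. IL1A started close to background level, with 2.72, 2.77 and 3.02 in PC9, and reached 9.08, 9.04 and 9.08 in PC9/gef. STC2 was clearly detected in PC9, with 4.84, 5.21 and 5.42, and reached 9.63, 9.66 and 9.52. CTAG2 started at 5.88, 6.01 and 6.09 and reached 10.42, 10.48 and 10.39. IL1B started at 6.52, 6.60 and 6.59 and reached 10.94, 10.96 and 10.89. In these 4 genes, as in C12orf75, the arrays of the lines did not overlap, which held for 55.7% of all genes. The lower-ranked ZNF462 started at background level, with 2.70, 2.41 and 2.41, and reached 6.36, 5.94 and 6.36.

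**Figure D3:**
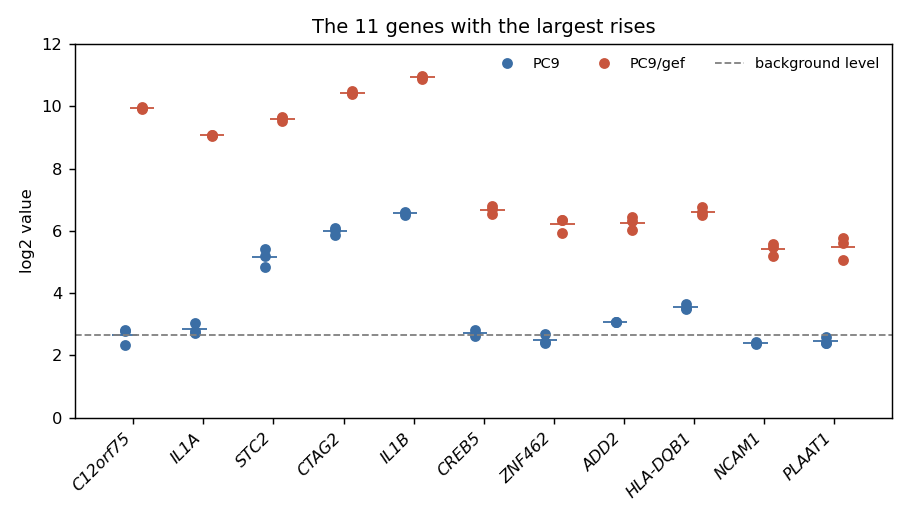
Log2 value (vertical axis) of the 11 genes with the largest rises (horizontal axis, in order of rank) on each array, with PC9 in blue, PC9/gef in red, short lines for the means and a dashed line for the background level of 2.65. C12orf75 and IL1A start near background level and end above 9, whereas STC2, CTAG2 and IL1B start above 4.

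Of the 305 genes over 2-fold higher in PC9/gef, 15 were at background level in PC9, by the mean of all 3 arrays. This count does not require a bright signal in PC9/gef. Among these 15 genes C12orf75 had the largest difference, and the median difference was 2.25. The second was ZNF462, with 3.71, followed by NCAM1 and PLAAT1, with 3.02 and 3.01. No other gene of this group had a difference over 3. After them came FOXL2, a transcription factor of the ovary, with 2.83, and DOCK10, an activator of small GTPases, with 2.78. Both were picked once their values were known. C12orf75 was in this group by a small margin, with a PC9 mean of 2.64 against a level of 2.65. Without PC9 replicate 1 its PC9 mean was 2.80, above that level. IL1A and CREB5 lay just above the level in PC9, with means of 2.84 and 2.71, and were not counted. Their differences were 6.23 and 3.96, both smaller than that of C12orf75. The size of its lead within the group therefore depends on where the level was set. Conversely, 11 genes were over 2-fold lower and at background level in PC9/gef. The largest of these falls was that of SLC6A14, an amino acid transporter, with a difference of -5.17.

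C12orf75 was the only one of the 11 leading genes with a single probe set, as for 9252 of the 19775 genes. No second probe set was therefore at hand to compare with it. Where others existed, they often differed. IL1A has a second probe set at background level in both lines, with a difference of 0.0013. Both probe sets of STC2 rose by a similar amount, with differences of 4.45 and 4.56, as did those of CTAG2 (4.43 and 3.92) and of IL1B (4.36 and 4.10). The 7 probe sets of NCAM1 included 2 with differences over 2, 3.02 and 2.58, and 5 at background level in both lines. The probe set of C12orf75 is not one of those named _x_at or _s_at, which can also bind related transcripts. With such probe sets left out, IL1A was read from its probe set at background level. The second rank thereby passed from IL1A to STC2, and the gap below C12orf75 widened to 2.85.

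**Figure D4:**
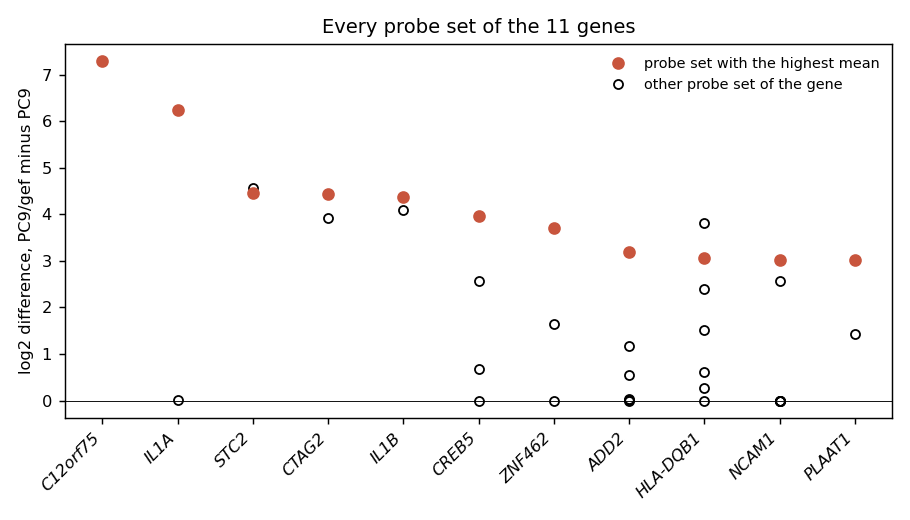
Difference in log2 value, PC9/gef minus PC9 (vertical axis), of every probe set of the 11 genes with the largest rises (horizontal axis). Filled red points are the probe sets with the highest mean over the 6 arrays, which represent the genes, and open points are the others. C12orf75 has 1 point, at 7.30, whereas IL1A has 1 probe set at 6.23 and 1 near 0.

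The genes around C12orf75 on chromosome 12 did not rise with it as a block. The nearest measured gene before it, APPL2, an adaptor of endosomal signaling, had values of 3.34, 3.56 and 3.52 in PC9 and of 3.42, 3.54 and 3.63 in PC9/gef. The lines overlapped, and APPL2 did not pass the test (difference 0.057, standard error 0.089, adjusted p = 0.634 from limma). Between APPL2 and C12orf75 lies C12orf75-AS1, a noncoding gene with no probe set of its own. The nearest measured gene after it, the noncoding CASC18, was at background level in both lines, with means of 2.46 and 2.45. Between them lie 5 genes that were not measured. Further out, ALDH1L2, a mitochondrial folate enzyme, had 1 PC9/gef array at 3.77, whereas its other 5 arrays lay between 2.73 and 2.81, and it did not pass (difference 0.36, adjusted p = 0.425).

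NUAK1, the second measured gene after C12orf75, rose in PC9/gef. It encodes a kinase related to AMPK. Its values were 8.36, 8.33 and 8.07 in PC9 and 9.48, 9.53 and 9.52 in PC9/gef, with no overlap. NUAK1 was 2.39-fold higher (difference 1.26, standard error 0.088, adjusted p = 0.0011 from limma) and also passed without each array in turn. It was the only one of 20 neighbours over 2-fold different, as were 2.88% of all genes. WASHC4, a subunit of the endosomal WASH complex and the second measured gene before C12orf75 on the other side, had values of 8.53, 8.50 and 8.57 in PC9 and of 9.02, 8.96 and 8.98 in PC9/gef. It was 1.37-fold higher (difference 0.45, standard error 0.024, adjusted p = 0.00055). Its other probe sets had differences of 0.14 and -0.0026.

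Of the 20 nearest measured neighbours, 10 on each side, 4 were higher and 4 were lower by limma, which is 40.0% against 31.5% of all genes called (14.4% higher and 17.1% lower). Among the 15 neighbours above background level 7 were called, which is 46.7% against 46.0% of all genes above that level. The neighbours' median difference was 0.018, against -0.00065 over all genes. TXNRD1, a thioredoxin reductase, and TMEM263, a small membrane protein, were also higher (differences 0.13 and 0.27, adjusted p = 0.0044 and 0.0035). POLR3B, a subunit of RNA polymerase III, was 1.44-fold lower (difference -0.53, adjusted p = 0.0030). Its 2 other probe sets were close to background level, with PC9 means of 2.92 and 2.77, and had differences of -0.056 and -0.035. The mean over all probe sets of POLR3B differed by -0.21 (adjusted p = 0.00245). CHST11, a chondroitin sulfotransferase, was 1.33-fold lower (difference -0.41, adjusted p = 0.00031), though its mean over all probe sets differed by -0.022 and did not pass (adjusted p = 0.618). TMEM263 had a difference of -0.0033 with probe sets named _x_at or _s_at left out. As the mean over all its probe sets it was still higher (difference 0.089, adjusted p = 0.0040 from limma). CKAP4, a membrane protein of the endoplasmic reticulum, was lower by a small amount (difference -0.15, adjusted p = 0.028). Its call was lost when any array except that of PC9/gef replicate 2 was left out, with adjusted p from 0.073 (PC9 replicate 2) to 0.0923 (PC9/gef replicate 3). The fourth lower gene, LOC100505978, was at background level in both lines, with a difference of -0.0016.

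**Figure D5:**
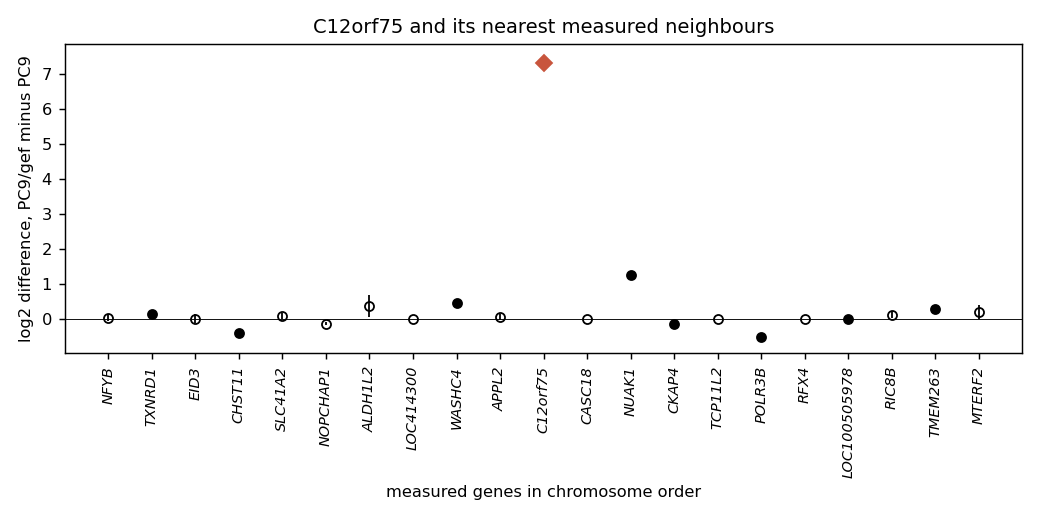
Difference in log2 value, PC9/gef minus PC9 (vertical axis), of C12orf75 (red diamond) and of the 10 nearest measured genes on each side in chromosome order (horizontal axis, not to scale). Bars are 1 standard error, filled points passed the limma test and open points did not. C12orf75 stands at 7.30, NUAK1 at 1.26 and the other neighbours between -0.53 and 0.45.

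Genes of the HuR pathway named above were called at about the share of all genes. Of 9 measured genes, the HuR family, both beta-TrCP genes and the other subunits of their ubiquitin ligase, none was higher and 3 were lower by limma on the probe sets with the highest mean (ELAVL1, ELAVL3 and CUL1), which is 33.3% against 31.5% of all genes. At an unadjusted p under 0.05 from limma, 2 were higher and 4 were lower, against 47.6% of all genes in either direction. None was over 2-fold different, against 2.88% of all genes. Their median difference was -0.0046. ELAVL1, the gene of HuR, had values of 12.01, 11.97 and 11.96 in PC9 and of 11.52, 11.54 and 11.55 in PC9/gef on the probe set with its highest mean. On that probe set it was 1.36-fold lower (difference -0.44, standard error 0.016, adjusted p = 0.00023 from limma). A second ELAVL1 probe set pointed the other way, with 9.11, 9.03 and 9.08 in PC9 and 9.56, 9.51 and 9.56 in PC9/gef (difference 0.47). The mean over its 4 probe sets differed by -0.055 and did not pass (adjusted p = 0.483), so no direction is given for HuR. The arrays measured RNA only, and HuR protein was not measured.

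BTRC, which encodes beta-TrCP1, had values of 6.79, 6.79 and 6.78 in PC9 and of 6.75, 6.76 and 6.69 in PC9/gef, and did not pass (difference -0.050, adjusted p = 0.158 from limma). FBXW11, the related beta-TrCP2, had a difference of 0.12 (adjusted p = 0.0547) and passed without PC9/gef replicate 2 (0.0196). CUL1, the scaffold of the ligase, was 1.30-fold lower (difference -0.37, adjusted p = 0.00099). Without probe sets named _s_at its difference was 0.029, on a dim probe set with means of 3.41 in PC9 and 3.44 in PC9/gef. SKP1 and RBX1, the other subunits of the ligase, did not pass (differences 0.066 and 0.037). As the mean over its 4 probe sets, however, SKP1 was higher (difference 0.087, adjusted p = 0.0020 from limma), and 2 of its other probe sets had differences of 0.14 and 0.13. ELAVL3, a neuronal relative of HuR, was barely above background level, with means of 2.98 in PC9 and 2.93 in PC9/gef (adjusted p = 0.0269). It passed in only 1 of the 6 fits without 1 array. ELAVL2 and ELAVL4, also neuronal, were at background level.

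FSTL1, the other gene called OCC-1, also rose. It was picked out once its values were known. Its values were 9.46, 9.55 and 9.45 in PC9 and 10.15, 10.19 and 10.10 in PC9/gef. This was a 1.58-fold rise (difference 0.66, standard error 0.038, adjusted p = 0.00068 from limma). Its 2 further probe sets had differences of -0.096 and -0.00049, the second at background level.

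Other open reading frames of chromosome 12 named by their place did not share the rise. Of 8 such genes, 4 were at background level in both lines and none was over 2-fold different, against 2.88% of all genes. By limma 2 were higher and 1 was lower, which is 37.5% against 31.5% of all genes. C12orf60 had values of 7.35, 7.41 and 7.52 in PC9 and of 7.93, 7.85 and 7.85 in PC9/gef, a 1.37-fold rise (difference 0.45, standard error 0.053, adjusted p = 0.0053). C12orf57 was 1.09-fold higher (adjusted p = 0.028) and lost its call when any array except that of PC9/gef replicate 1 was left out, with adjusted p from 0.0515 (PC9/gef replicate 2) to 0.0899 (PC9/gef replicate 3). The lower gene, C12orf74, was at background level, with a difference of -0.0034.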

How the data were processed

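RNA of 3 PC9 and 3 PC9/gef samples was measured on Affymetrix U133 Plus 2.0 arrays. The authors corrected, normalized and summarized the scans per probe set, and the deposited values are on the log2 scale, from 1.65 to 15.72 with a median of 2.55 on every array. GC-RMA and GeneSpring GX are named in the study's methods, RMA in the submitters' notes, and versions are not given in the sources used here. Such steps compress differences near background level. Values were used as deposited. The number of arrays limits the precision, and no counts lie behind the values.

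The 62 control probe sets were left out. Of the others, 41091 name 1 gene, 1801 name several and 11721 name no gene. Where a gene has several probe sets of its own, the brightest by its mean of all 6 arrays was used. Symbols were updated by gene identifier (RefSeq table of GRCh38.p14), which also gave the gene order and the promoter. Lines were compared in limma 3.58.1 (R 4.3.3, empirical Bayes, all 6 arrays, no covariate), with Benjamini-Hochberg adjustment over all genes and a threshold of 0.05. The fit was tested on simulated data. The study's definition, a difference over 2-fold, was counted as well. Genes named were C12orf75, the 10 largest rises, the 10 most alike genes, neighbours that passed or lie next to C12orf75, HuR pathway genes and the leading members of the C12orf list, and others were picked once their values were known. C12orf75 and the lists were chosen with earlier results of these data known. Settings varied were normalization, moderation, dim probe sets, probe set choice, the replicate block, leaving out each array, the number of neighbours and the methods' test.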

Additional observations from a re-analysis of the deposited data

How the results depend on the processing

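C12orf75 kept the first rank in all 14 alternatives and its log2 difference moved between 7.14 and 7.38, both from fits without 1 array. In the other fits the difference stayed at 7.30. Moderation, the replicate block, centring on the median and the filter on dim probe sets could not change it, so they say nothing on its stability. Quantile normalization had little to change, since every array already had the same median of 2.55. C12orf75 has 1 probe set, so the choice among probe sets could not be varied. A list of small proteins was not run, since no protein sequences were used here. Same-numbered samples of the lines did not deviate together (r = -0.026, 0.016 and 0.048), and not every sample correlated best with its own number. With the replicate block 3530 genes were called in place of 6236, and 0 C12orf genes in place of 3 (2 at an unadjusted p under 0.05). With trend and robust moderation 8082 genes were called in place of 6236, and 5 HuR pathway genes in place of 3. With _x_at and _s_at probe sets left out, 4157 genes, 5 neighbours (in place of 8) and 1 C12orf gene were called. The methods' t-test at an unadjusted p under 0.05 called 9692 genes, 6 HuR pathway genes and 5 C12orf genes, and 6790 genes after Benjamini-Hochberg adjustment. With 5 neighbours on each side 4 of 10 were called, and with 20 on each side 15 of 40, fewer or more by construction. Of all genes 31.5% were called. Without 1 array, 4238 to 6893 genes, 6 to 10 neighbours, 2 to 4 HuR pathway genes and 1 to 3 C12orf genes were called. The count of C12orf genes was 1 without PC9/gef replicate 3 and without any single PC9 array. ELAVL1 did not pass as the mean over its probe sets (log2 difference -0.055). SKP1 passed as that mean (0.087). The PC9 mean of C12orf75 was under the background level with all 3 arrays and above it without PC9 replicate 1.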
